A study of Mus musculus with 4 samples.

Results

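Heat shock chaperones were followed together with Hsf1, the transcription factor that switches many of them on. The cells were fetal liver blood stem and progenitor cells that lacked Bclaf1 or kept it. The members were chosen by name and were 10 of the 32285 genes listed in the files: Hspa1a, Hspa1b, Dnajb1, Hsph1, Hsp90aa1, Hspa8, Hsp90ab1, Dnaja1, Hspe1 and Hsf1. Hspa1a and Hspa1b are near-identical copies that share reads, so their sum is given first and each copy beside it. The KO cells came from Vav-Cre:Bclaf1f/f embryos and the WT cells from Bclaf1f/f embryos, so both genotypes carried the floxed Bclaf1 alleles and the labels name the Cre for KO alone. Vav-Cre is active across blood cells and not in stem cells alone. All embryos were at stage E17.5, late in gestation, with 10 livers pooled per genotype, and c-Kit+ bead-enriched cells were sorted as LSK (Lineage- Sca1+ c-Kit+), the surface profile of early blood progenitors. Of 20000 sorted cells, 10000 were loaded per genotype for CITE-seq, a droplet method that reads the RNA of single cells together with barcoded antibodies bound to their surface. With 1 library per genotype there was no replicate, so no test was made, and every interval below covers counting error only.

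HSP70 proteins (Hspa1a, Hspa1b, Hspa8) hold unfolded stretches of protein in a cycle of ATP binding and release. J-domain partners (Dnajb1, Dnaja1) load their clients, and Hsph1, an HSP110, resets them by nucleotide exchange. HSP90 (Hsp90aa1, Hsp90ab1) finishes the folding of kinases and receptors, and Hspe1 is the lid of the mitochondrial chaperonin. Hspa1a, Hspa1b, Dnajb1, Hsph1 and Hsp90aa1 are known as the heat- and stress-inducible forms, while Hspa8, Hsp90ab1, Dnaja1 and Hspe1 are made in most cells at rest. Hsf1 is present in resting cells, held inactive by chaperones, and binds heat shock elements, inverted repeats of GAA, when unfolded protein draws those chaperones away.

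After filtering, 2668 KO cells with 103500376 gene UMIs and 5345 WT cells with 141419013 gene UMIs remained, where a UMI (unique molecular identifier) marks 1 captured transcript. The median cell held 34140 UMIs in KO and 22734 in WT, and all levels are therefore given as CPM, UMIs scaled to 1000000 gene UMIs of the same group of cells. Bclaf1 itself stood at 75.9 CPM in KO and 218 CPM in WT, a log2 KO/WT ratio of -1.52. Which exons the deletion removes is not given in the sources used here, so transcripts counted at their 3′ end need not all be intact. The libraries shared 5 cell barcodes, 0.187% of KO cells and 0.0935% of WT cells. Markers fixed for stem and progenitor classes were present in both libraries: the summed level of 14 stem cell genes was 506 CPM in KO and 591 CPM in WT, and that of 9 hepatocyte genes was 29.4 and 26.7 CPM.

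The start-site windows show how alike the HSP70 copies are and where the letters bound by Hsf1 lie. RefSeq windows of build GRCm38.p6, the assembly of mm10, were on hand for 6 of the 10 members and were read over the 250 bases before each start site. Capitals mark the letters GAANNTTC or TTCNNGAA, each of which is its own reverse complement and so covers both strands. The Hspa1a window (chr17:34972157-34972406, minus strand) and the Hspa1b window (chr17:34959239-34959488, minus strand) are printed because the results turn on this pair:
Hspa1a: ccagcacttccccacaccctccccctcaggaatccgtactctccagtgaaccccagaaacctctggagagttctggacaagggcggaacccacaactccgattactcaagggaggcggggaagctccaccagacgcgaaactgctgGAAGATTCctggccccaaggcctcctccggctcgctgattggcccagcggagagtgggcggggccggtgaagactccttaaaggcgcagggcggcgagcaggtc
Hspa1b: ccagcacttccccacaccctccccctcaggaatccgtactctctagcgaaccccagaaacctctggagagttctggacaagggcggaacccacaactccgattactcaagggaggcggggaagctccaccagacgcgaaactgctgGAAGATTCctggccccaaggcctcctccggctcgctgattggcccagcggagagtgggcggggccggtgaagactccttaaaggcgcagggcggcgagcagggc
The windows were identical at 247 of 250 bases (98.8%). The substitutions were C44T, T47C and T249G, with the Hspa1a base first, the position counted from 1 at the 5′ end of the window, and the Hspa1b base last. None lay in the capitals, which began 104 bases before the start of both genes.

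Other members differed in how many such elements their windows held, and the stretches that hold them are printed for comparison with the HSP70 pair, with 10 bases on either side:
Hspe1: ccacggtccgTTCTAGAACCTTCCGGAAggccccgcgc
Dnaja1: aaagcctctaGAAAATTCtacgaggctc
Hsph1: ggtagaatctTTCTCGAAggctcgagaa
The Hspe1 stretch lies at chr1:55088049-55088086 on the plus strand and holds 3 overlapping elements. It also holds, on both strands, the longer form with 3 inverted repeats, GAANNTTC followed directly by NNGAA, which was found in 0.466% of all 32851 windows of the same length. The Dnaja1 stretch lies at chr4:40722334-40722361 on the plus strand, in 1 of that gene's 3 windows, and the Hsph1 stretch at chr5:149636352-149636379 on the minus strand. No GAANNTTC or TTCNNGAA was found in the 2 windows of Dnajb1. A gene can have several windows, and by gene the 8-letter element stood in at least 1 window of 5 of the 6 members, against 14.5% of all 27025 genes. By window it stood in 6 of the members' 10, against 12.8% of all windows, but the Hspa1a and Hspa1b windows are near copies and those of Hsph1 overlap, so these are not separate sequences. CCAAT, on either strand, stood in at least 1 window of Hspa1a, Hspa1b, Dnajb1, Dnaja1 and Hsph1, and 33.8% of all windows hold it.

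The inducible HSP70 pair carried the largest difference among the members. Hspa1a plus Hspa1b came to 501 CPM in KO and 202 CPM in WT over all LSK cells, a log2 KO/WT ratio of 1.31 (95% interval 1.29 to 1.33) or 2.48-fold. Hspa1a alone stood at 224 CPM in KO and 85.4 CPM in WT (log2 ratio 1.39), and Hspa1b at 277 CPM in KO and 117 CPM in WT (log2 ratio 1.25). Both copies were thus more than 2-fold higher in KO, a size reached by 0.498% of the 9230 genes with a mean of at least 5 CPM. Only 10 of those genes had a larger ratio than Hspa1a, and 20 a larger ratio than Hspa1b. Hspa1a gave 44.6% of the pair's UMIs in KO and 42.2% in WT, so the split between the copies was close in both libraries although reads of one can be assigned to the other.

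**Figure D1:**
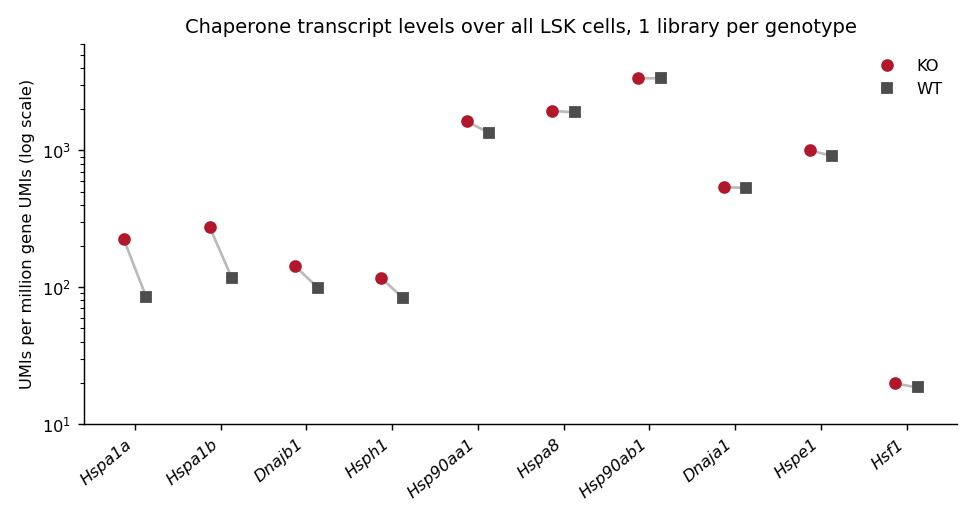
Levels of the 10 members over all LSK cells, in CPM on a log axis, with KO as red circles and WT as grey squares, 1 library each. Hspa1a and Hspa1b show the widest gaps (224 against 85.4 and 277 against 117 CPM), while Hsp90ab1, Dnaja1 and Hspa8 nearly coincide.

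The J-domain and HSP110 partners of inducible HSP70 were higher in KO by a smaller amount. Dnajb1, which activates HSP70's ATPase, stood at 142 CPM in KO and 99.5 CPM in WT, a log2 ratio of 0.52 (0.48 to 0.55). Hsph1, the nucleotide exchange partner, stood at 117 CPM in KO and 82.95 CPM in WT, a log2 ratio of 0.50 (0.46 to 0.53). Hsp90aa1, the inducible HSP90, stood at 1629 CPM in KO and 1347 CPM in WT, a log2 ratio of 0.27 (0.27 to 0.28), or 1.21-fold. At least 25% higher in KO were thus Hspa1a, Hspa1b, Dnajb1 and Hsph1, 4 of the 10 members, against 7.37% of all genes measured. None of the 10 was at least 20% lower, against 2.52% of all genes.

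The constitutive members differed little over all cells. Hspa8, the housekeeping HSP70, stood at 1945 CPM in KO and 1898 CPM in WT (log2 ratio 0.04). Hsp90ab1, the housekeeping HSP90, stood at 3377 CPM in KO and 3362 CPM in WT (log2 ratio 0.01). Dnaja1, the other J-domain partner, stood at 539 CPM in KO and 532 CPM in WT (log2 ratio 0.02). Hspe1, the chaperonin lid, stood at 999 CPM in KO and 914 CPM in WT (log2 ratio 0.13). All 4 therefore lay within 10% of WT, with the median of all measured genes at a log2 ratio of 0.07.

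Hsf1 transcripts were scarce in both libraries. Hsf1 stood at 19.8 CPM in KO and 18.5 CPM in WT, a log2 ratio of 0.10 (0.01 to 0.18). After each cell was thinned to 8000 UMIs, 14.5% of KO cells and 13.6% of WT cells held an Hsf1 UMI. Hsf1 activity is set by its protein, which was not measured.

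Set against its constitutive partner within the same cells, the inducible form took a larger share in KO in each pair. Hspa1a plus Hspa1b gave 25.8 UMIs per 100 Hspa8 UMIs in KO and 10.7 in WT. Dnajb1 gave 26.4 UMIs per 100 Dnaja1 UMIs in KO and 18.7 in WT. Hsp90aa1 gave 48.2 UMIs per 100 Hsp90ab1 UMIs in KO and 40.05 in WT. Because both counts of a pair come from the same cells, these ratios do not depend on the total used for scaling. They can still depend on the mix of cells, which differed between the libraries. An erythroid-like cluster with high Hsp90aa1, described below, gave 21.4% of all UMIs in KO and 10.3% in WT.

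The difference in inducible HSP70 was spread over many cells. With every cell thinned to 8000 UMIs, which left out no cell, 70.1% of KO cells (95% interval 68.3 to 71.8%) and 49.1% of WT cells (47.8 to 50.5%) held at least 1 Hspa1a or Hspa1b UMI. Without thinning the shares were 82.9% in KO and 64.6% in WT. At least 5 UMIs were held by 32.0% of KO cells and 8.74% of WT cells, and at least 10 by 11.6% and 1.70%. No cell type in these libraries is known to lack these genes, so no background share from such a type can be given, and free RNA is described below from empty droplets.

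A thin tail of very high cells was present in both libraries and weighed more in WT. The 1% of cells with the most Hspa1a and Hspa1b UMIs held 7.19% of the pair's thinned UMIs in KO and 17.0% in WT, and the highest single cell held 45 thinned UMIs in KO and 77 in WT. The variance of thinned UMIs was 6.18 times the mean in KO and 7.94 times in WT, where independent counting would give a value near 1. The constitutive Hspa8 and Hsp90ab1 were found in nearly every cell, with variances of 3.32 and 2.16 times the mean in KO and the same values in WT. Without the 1% of cells with the most UMIs of the pair, the log2 ratio over all cells was 1.44.

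**Figure D2:**
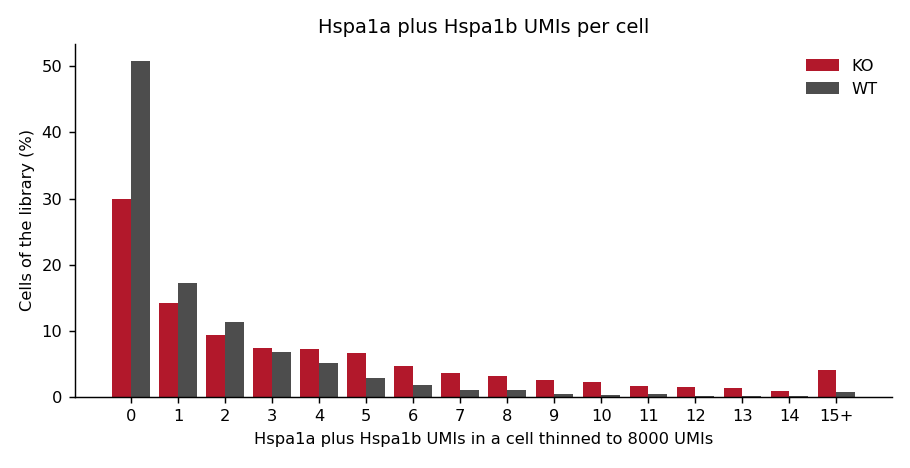
Percent of cells in each library (y axis) by the number of Hspa1a plus Hspa1b UMIs in a cell thinned to 8000 UMIs (x axis), KO in red and WT in grey. Cells without a UMI made up 29.9% of KO and 50.9% of WT, WT bars are also taller at 1 and 2 UMIs, and KO bars are taller from 3 UMIs upwards.

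The antibody tags allowed phenotypic gates to be drawn without use of the RNA. CD150 and CD48 together separate long-term stem cells (CD150+CD48-) from multipotent progenitors (CD150-CD48-) and from CD48+ progenitors. The gates held 287 KO and 627 WT cells for CD150+CD48-, 345 and 589 for CD150-CD48-, 376 and 658 for CD150+CD48+, and 1660 and 3471 for CD150-CD48+. Hspa1a plus Hspa1b was higher in KO in all 4 gates. In CD150+CD48- cells it stood at 327 CPM in KO and 116 CPM in WT, a log2 ratio of 1.49 (1.40 to 1.58). In CD150-CD48- cells it stood at 324 CPM in KO and 145 CPM in WT (log2 ratio 1.16), in CD150+CD48+ cells at 447 and 184 CPM (1.28), and in CD150-CD48+ cells at 580 and 225 CPM (1.36).

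The gates with the larger ratios differed from member to member. Dnajb1 had log2 ratios of 0.37 in CD150+CD48-, 0.51 in CD150-CD48-, 0.39 in CD150+CD48+ and 0.58 in CD150-CD48+ cells. Hsph1 ran the other way, with 0.70 in CD150+CD48- cells (133 CPM in KO and 81.6 CPM in WT) and 0.41 in CD150-CD48+ cells (105 and 78.9 CPM). Hsp90aa1 showed 0.51 in CD150+CD48- cells (1790 CPM in KO and 1257 CPM in WT) and 0.17 in CD150-CD48+ cells (1453 and 1288 CPM). Hspe1 showed 0.49 in CD150+CD48- cells (1116 CPM in KO and 792 CPM in WT) and less than 0.01 in size in CD150-CD48+ cells (890 and 892 CPM). Hsp90ab1 was at most 0.05 in all 4 gates and Dnaja1 lay between -0.10 and 0.07. At least 25% higher were 6 of 10 members in CD150+CD48- cells, against 14.6% of all genes there, and 6 in CD150-CD48- cells, against 12.4%. The count was 4 of 10 in CD150+CD48+ cells, against 10.3%, and 4 in CD150-CD48+ cells, against 7.65%. In none of the 4 gates was a member at least 20% lower, while of all genes 17.6% were in CD150+CD48-, 16.1% in CD150-CD48-, 5.47% in CD150+CD48+ and 1.09% in CD150-CD48+ cells.

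**Figure D3:**
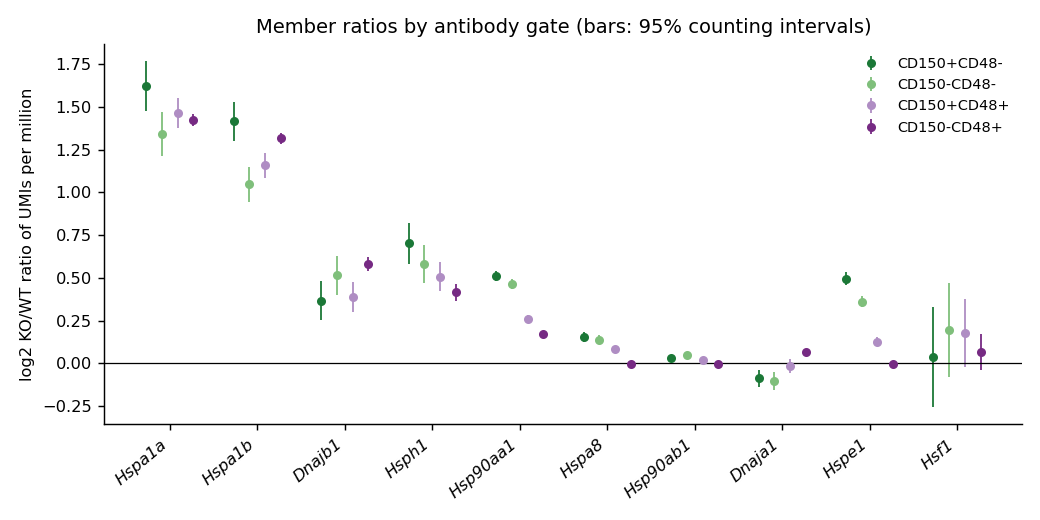
Log2 KO/WT ratio of CPM (y axis) for each member in the 4 antibody gates (colours), with bars for the 95% counting interval. Hspa1a and Hspa1b lie above 1.00 in every gate, Hsp90aa1 and Hspe1 differ most between the CD48- and CD48+ gates, and Hsp90ab1 stays near 0.

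The make-up of the CD150+CD48- gate differed between the libraries, and this moved with the Hsp90aa1, Hspe1 and Hsph1 ratios. Clusters built from RNA, without the chaperone genes, placed 47.0% of KO and 65.7% of WT cells of this gate in the HSC-like cluster. An erythroid-like cluster held 21.3% of its KO cells and 5.58% of its WT cells, and gave 45.3% and 16.9% of the gate's UMIs. That cluster had high Hsp90aa1 (2523 CPM in KO and 2293 CPM in WT) and high Hspe1 (1692 CPM in KO and 1717 CPM in WT) over all cells. The summed level of 12 erythroid marker genes in the gate was 1634 CPM in KO and 968 CPM in WT, with none of the 12 at 0. The other gates also held more of the erythroid-like cluster in KO. It made up 24.9% of KO and 10.0% of WT cells in CD150-CD48-, and gave 52.1% and 27.7% of the UMIs there. Its shares of cells were 27.1% and 14.3% in CD150+CD48+, and 3.43% and 1.73% in CD150-CD48+. Levels of these gates thus also compare unlike mixtures of cells. The part this had in their ratios was not tested.

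Without the erythroid-like cluster, 226 KO and 592 WT cells of the CD150+CD48- gate were left. Hspe1 then stood at 606 CPM in KO and 590.2 CPM in WT (log2 ratio 0.04), and Hsp90aa1 at 1173 and 1014 CPM (0.21). Hsph1 stood at 85.1 CPM in KO and 67.8 CPM in WT (0.33), and Hspa1a plus Hspa1b at 304 and 93.5 CPM (1.70). The HSP70 ratio was thus larger without that cluster, while those of Hspe1 and Hsp90aa1 were smaller. With KO cells of the gate weighted to the WT cluster shares instead, the log2 ratios were 1.22 for the pair, 0.41 for Dnajb1, 0.25 for Hsph1, 0.12 for Hsp90aa1 and 0.00 for Hspe1. Among the 135 KO and 412 WT cells of the gate that were also HSC-like, Hspa1a plus Hspa1b stood at 225 CPM in KO and 100.4 CPM in WT, a log2 ratio of 1.16 (1.00 to 1.32). In those same cells the log2 ratio was 0.27 for Dnajb1, 0.23 for Hsph1, 0.13 for Hsp90aa1, -0.07 for Hspe1 and -0.06 for Hspa8. Few KO cells carried much of this HSP70 ratio. The 26 HSC-like KO cells of the gate with low CD201 gave 345 of the 620 UMIs of the pair (55.6%) in HSC-like KO cells of the gate. Among them, 1 cell gave 26.4% of those 345. In WT the low CD201 share was close, 333 of 629 UMIs (52.9%), but came from 172 cells. These 26 KO and 172 WT cells stood at 623 CPM in KO and 119.5 CPM in WT, a log2 ratio of 2.38 (2.16 to 2.60). The remaining HSC-like cells, with high CD201, had a smaller ratio, given next.

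CD201, the protein product of Procr and a marker of the most primitive stem cells, split the gate further. The high CD201 cells were 176 in KO and 281 in WT. Their Hspa1a plus Hspa1b level was 253 CPM in KO and 86.5 CPM in WT (log2 ratio 1.55), Hsp90aa1 was 1887 and 887 CPM (1.09), Hspe1 was 1180 and 558 CPM (1.08), and Hsph1 was 140 and 59.1 CPM (1.24). Of these cells, 21.6% in KO and 0.356% in WT, a single WT cell, lay in the erythroid-like cluster. They gave 49.3% of the UMIs of the high CD201 cells in KO and 1.63% in WT, so the pooled levels compare unlike mixtures of cells. Procr RNA stood at 34.4 CPM in KO and 85.3 CPM in WT in the high CD201 cells. Limited to the HSC-like cluster, with 109 KO and 240 WT cells, the pair stood at 125 CPM in KO and 85.2 CPM in WT, a log2 ratio of 0.55 (0.31 to 0.79). There Hspa1a had a log2 ratio of 1.15 (0.77 to 1.54) and Hspa1b of 0.12 (-0.20 to 0.45), so that the counting interval of Hspa1b included 0. Hsp90aa1 was at 0.16 and Hspe1 at -0.05 in these cells. In the HSC-like cells with low CD201, Hspa1a had a log2 ratio of 2.82 and Hspa1b of 2.04, while Hsp90aa1 was at 0.17 and Hspe1 at -0.04. In the high CD201 gate as a whole 6 of 10 members were at least 25% higher, against 23.1% of all genes, and in the low CD201 cells 4 of 10, against 13.9%. None was at least 20% lower in either, against 32.7% of genes in high and 12.3% in low CD201 cells.

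**Figure D4:**
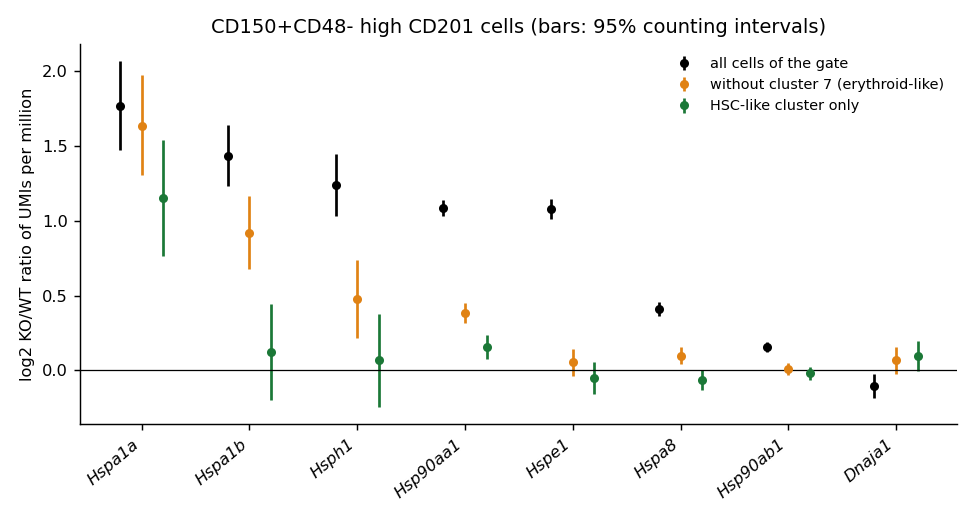
Log2 KO/WT ratio of CPM (y axis) for 8 members in CD150+CD48- high CD201 cells, over all cells of the gate (black), without the erythroid-like cluster (orange) and in the HSC-like cluster alone (green), with 95% counting intervals. Hsp90aa1 and Hspe1 lie at 1.09 and 1.08 over the whole gate and at 0.16 and -0.05 in the HSC-like cluster. Hspa1a stays above 1.00 in all 3, but Hspa1b falls well below it in the HSC-like cluster, where its interval crosses the line of equal levels. The sum of the pair is not plotted.

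Within each library the HSP70 pair was lower in the 2 CD48- gates than in the 2 CD48+ gates. In KO, CD150+CD48- cells had 327 CPM and CD150-CD48+ cells 580 CPM, a log2 ratio between the gates of -0.83, and in WT the same gates had 116 and 225 CPM, a log2 ratio of -0.96. At least 20% lower between these gates were 11.8% of all genes in KO and 7.81% in WT. The order of the 4 gates was not the same in both libraries at its low end: in KO the CD150+CD48- and CD150-CD48- gates, at 327 and 324 CPM, overlapped in their intervals, while in WT they stood apart at 116 and 145 CPM. Between high and low CD201 cells the pair had log2 ratios of -0.76 in KO and -0.60 in WT, where 10.0% of all genes in KO and 16.1% in WT were at least 20% lower.

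Across 16 transcript clusters the pair was higher in KO, by at least 25%, in 15, where 18.1% of the genes measured, pooled over clusters, were as much higher. The 15 include cluster 15, which held only 25 KO and 5 WT cells, with median mitochondrial shares of 0.83% and 0.60%. In it 36.4% of genes were at least 25% higher in KO and 36.3% at least 20% lower. In the HSC-like cluster, with 243 KO and 697 WT cells, it stood at 231 CPM in KO and 111 CPM in WT, a log2 ratio of 1.06. In the erythroid-like cluster it stood at 370.5 CPM in KO and 184 CPM in WT (1.01), in the megakaryocyte-like cluster at 424 and 165 CPM (1.36), and in the granulocyte-monocyte-like cluster at 809 and 349 CPM (1.21). The widest ratio of the 16 was in cluster 5, unnamed and led by Slfn9, Ccne2 and Tcf19, with 359 CPM in KO and 92.6 CPM in WT (1.96). The narrowest positive one was in the lymphoid progenitor-like cluster, led by Ebf1, Ccr9 and Il7r, with 456 CPM in KO and 365 CPM in WT, a log2 ratio of 0.32 (0.24 to 0.41). Hspa1a alone stood there at 197 CPM in KO and 164 CPM in WT.

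The clusters with the highest level of the pair were the same 2 in both libraries. The monocyte, macrophage or dendritic-like cluster, led by H2-Aa and Cd74, had 1291 CPM in KO and 478 CPM in WT. A mast or basophil-like cluster led by Ms4a2 and Mcpt8 had 1044 CPM in KO and 514 CPM in WT. The intervals of these clusters stood apart in KO and overlapped in WT, where their order is not resolved. The granulocyte-monocyte-like cluster came next in KO, while in WT its interval overlapped that of the lymphoid progenitor-like cluster. The range from the lowest to the highest cluster was 19.3-fold in KO and 5.56-fold in WT, but the low end in KO was cluster 13 alone, described next, and without that cluster the range was 5.58-fold in KO and 5.56-fold in WT. Of the 15 neighbouring pairs of clusters in this order, 9 in KO and 11 in WT had overlapping counting intervals.

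The single cluster with less of the pair in KO was cluster 13, another mast or basophil-like one, led by Cma1, Tpsb2, Cpa3 and Mcpt4, genes of mature mast cell granules. Its 45 KO cells held 60 Hspa1a and Hspa1b UMIs, 66.8 CPM, and its 71 WT cells held 181, 134 CPM, a log2 ratio of -1.01 (-1.45 to -0.58). Hspa1b alone stood there at 42.3 CPM in KO and 55.7 CPM in WT, a log2 ratio of -0.40 whose counting interval included 0. The pair was found in 17.8% of the KO cells and 16.9% of the WT cells of that cluster before thinning, and 1 cell held 38.3% of its KO UMIs and 1 cell 21.5% of its WT UMIs. Without those 2 cells the log2 ratio was -1.35. In that cluster 6 of 10 members were at least 20% lower in KO, against 34.0% of all genes.

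**Figure D5:**
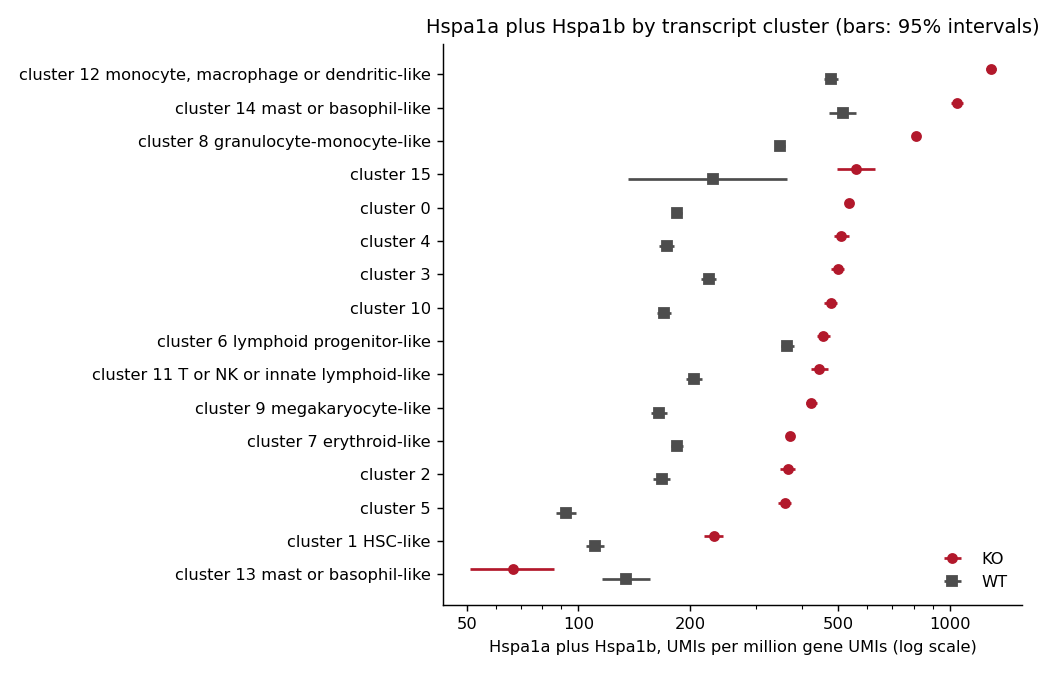
Hspa1a plus Hspa1b in CPM (x axis, log scale) in each of 16 transcript clusters, KO as red circles above WT as grey squares, with 95% counting intervals. KO lies to the right in 15 clusters, by the least in the lymphoid progenitor-like one, and to the left in cluster 13.

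The other members behaved differently from the pair across clusters. Of all genes measured, 18.1% pooled over clusters were at least 25% higher in KO, from 7.66% in the erythroid-like cluster to 36.4% in cluster 15. The share of all genes above WT by any amount was not counted. Dnajb1 was higher in KO in 15 of 16 clusters and by at least 25% in 11, with its widest log2 ratio, 1.64, in the Ms4a2 and Mcpt8 cluster (249 CPM in KO and 80.0 CPM in WT). Hsph1 was higher in all 16 and by at least 25% in 9, and Hsp90aa1 was higher in 15 but by at least 25% in 1. Hspa8 was higher in 9 clusters and by at least 25% in none, and Hsp90ab1 in 7 and by at least 25% in none. Hspe1 was higher in 7 clusters and had a median log2 ratio of -0.02 over the 16, against 0.13 over all cells pooled. Hsf1 ratios ran from -1.34 to 0.50, and the counting interval lay above 0 in 1 cluster and below 0 in none.

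Immediate early genes, which respond within minutes to cell handling and to growth signals, moved with the HSP70 pair. Of 16 measured genes of a fixed list of 20, 15 were at least 25% higher in KO, against 7.37% of all genes measured. The list summed to 1725 CPM in KO and 915 CPM in WT. The median cell gave 0.163% of its UMIs to that list in KO and 0.0857% in WT, and 49.6% of KO cells and 17.6% of WT cells fell in the highest of 3 ranges of that share, cut so that the libraries together, at equal weight, filled them evenly. In the lowest range the pair stood at 273 CPM in KO and 124 CPM in WT (log2 ratio 1.14), in the middle range at 416 and 217 CPM (0.94), and in the highest at 725 and 467 CPM (0.63). With KO cells weighted to the WT shares of the ranges, the log2 ratio over all cells was 0.91. The part of handling or of time before capture in this difference was not tested, and with 1 library per genotype library and genotype cannot be told apart.

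That weighting moved other members past or below the 25% line. Dnajb1 had a weighted log2 ratio of 0.24, with 95.2 CPM in KO and 86.9 CPM in WT in the lowest range. Hsp90aa1 had 0.46 and Hspe1 0.35 under the same weights, and Hsph1 0.64. Cells of the erythroid-like cluster gave a median of 0.0477% of their UMIs to the immediate early list in KO and 0.0229% in WT, the lowest of the 16 clusters in each library.

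Cell cycle and mitochondrial RNA content showed smaller gradients. Over 3 like ranges of the G2 and M phase share, the pair had log2 ratios of 1.24, 1.10 and 1.47 from low to high, and over those of the S phase share 1.10, 1.35 and 1.46. Over those of the mitochondrial share they were 1.20, 1.35 and 1.46, with 486 CPM in KO and 176 CPM in WT in the highest. Hspa8 had log2 ratios of -0.05, 0.11 and 0.19 in the mitochondrial ranges.

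Across single cells Hspa8, Hsp90aa1 and Hspe1 had higher correlations with each other than the inducible pair had with Hspa8 or Dnajb1. Over 2668 KO and 5345 WT cells thinned to 8000 UMIs, which share library and depth, Hspa8 and Hsp90aa1 had a Pearson r of 0.48 in KO and 0.44 in WT, and Hsp90aa1 and Hspe1 of 0.49 and 0.47. Hspa1a and Hspa1b, which share reads, had 0.54 and 0.41. The summed pair had 0.27 in KO and 0.12 in WT with Hspa8, and 0.25 and 0.15 with Dnajb1. Hsf1 had values between -0.02 and 0.04 with the other members. Low counts hold r down, so values of members at unlike levels cannot be compared directly. The mean thinned WT cell held 13.9 UMIs of Hspa8, 9.42 of Hsp90aa1 and 6.44 of Hspe1. It held 1.59 of the pair, 0.80 of Dnajb1 and 0.15 of Hsf1.

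Of 5087 genes at 20 CPM or more in both libraries, those most like the pair by the lower of the KO and WT r were Jun (0.34 in KO and 0.28 in WT), Plac8 (0.26 and 0.26), Btg2 (0.21 and 0.21), Mpo (0.25 and 0.17), Neat1 (0.17 and 0.15), Hsp90aa1 (0.18 and 0.15), Ctsg (0.22 and 0.15) and Dnajb1 (0.25 and 0.15). The 99th percentile of r over these genes was 0.13 in KO and 0.09 in WT. Jun, the AP-1 subunit, stood at 556 CPM in KO and 272 CPM in WT, and Btg2, an antiproliferative immediate early gene, at 116 and 71.1 CPM. Mpo and Ctsg encode granule proteins of the granulocyte-monocyte line, where the pair's level was also high.

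Free RNA showed a similar ratio, and at an assumed uptake it would make up little of a cell's counts. The uptake per cell was not measured. Droplets with 100 to 300 UMIs, taken as empty, held the pair at 679 CPM in KO and 289 CPM in WT, a log2 ratio of 1.23 (1.16 to 1.31). They held Hspa8 at 2424 and 2469 CPM and Hsp90ab1 at 2389 and 2460 CPM. If each cell had taken up as many UMIs as the median such droplet, free RNA would have given 0.692% of the pair's UMIs in KO cells and 0.703% in WT cells. With that profile subtracted, the log2 ratio over all cells was 1.31.

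Other genes of the chaperone network differed little. Of 115 further pathway genes in the files, 94 had a mean of at least 5 CPM, of which 64 were above WT, 6 (6.38%) were at least 25% higher in KO and none lower by 20% or more. Their median log2 ratio was 0.06. The share at least 25% higher among all genes was 7.37%, with a median of 0.07. Among 8 measured HSP70 and HSP110 genes 1 was at least 25% higher, Hspa4l, an HSP110, at 38.0 CPM in KO and 25.8 CPM in WT (log2 ratio 0.56), while Hspa5, the HSP70 of the endoplasmic reticulum, had 0.22 and the mitochondrial Hspa9 had 0.27. Among 23 J-domain genes Dnajb9, of the endoplasmic reticulum, had 0.61 (26.9 CPM in KO and 17.6 CPM in WT) and Dnajb4 0.55 (49.6 and 33.9 CPM), while Dnajc10 had -0.17.

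The co-chaperone and chaperonin lists held no gene past 25% in either direction over all cells. Of 20 HSP90 co-chaperone genes, the cyclophilin Ppid had a log2 ratio of 0.29 and Ptges3 (p23) 0.24. Of 13 nucleotide exchange and HSP70 cofactor genes, St13 had 0.18 and Stub1, a ubiquitin ligase that works with HSP70, -0.13. Of 15 chaperonin and prefoldin genes, Hspd1, the partner of Hspe1, had 0.17 and Pfdn5 -0.23. Hspd1 stood at 739 CPM in KO and 655 CPM in WT, with 0.52 in the CD150+CD48- gate and 0.03 in CD150-CD48+ cells. Of 9 genes listed by name as small heat shock proteins only 2 reached 5 CPM. They were Hspb1, at 7.44 CPM in KO and 6.17 CPM in WT, and Hspb11, at 24.5 and 27.4 CPM.

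Regulators of Hsf1 differed little, while 3 ubiquitin and stress genes were higher. Hsf2, a relative of Hsf1, stood at 11.7 CPM in KO and 11.3 CPM in WT, and Hsbp1, a binding protein of heat shock factors, at 137 and 147 CPM (log2 ratio -0.10). Sirt1, a deacetylase that acts on Hsf1, had 0.23. Of 6 measured ubiquitin and stress companion genes, 3 were at least 25% higher, against 7.37% of all genes measured. The 3 included Ier5, which is known to act on Hsf1, at 38.7 CPM in KO and 25.1 CPM in WT (log2 ratio 0.62). The polyubiquitin gene Ubb had -0.12 and Rps27a, which encodes ubiquitin fused to a ribosomal protein, -0.11.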

How the data were processed

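Per the file headers, Cell Ranger wrote the deposited matrices, which list raw UMI counts of 32285 genes and 6 antibody tags for every barcode, cells and empty droplets alike. The RNA and tag samples of KO and of WT made 4 samples and 2 libraries. The submitters' processing notes name Cell Ranger 4.0.6, the build mm10, Seurat and DESeq, with no steps for Seurat and DESeq.

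The members, gene lists, filters and rules were chosen with earlier results of these data known. Cells were barcodes with a UMI total over 10% of percentile 99 among the 6000 deepest barcodes (at least 9992 UMIs in KO and 8178 in WT), 500 or more genes and no more than 10% mitochondrial UMIs. Scrublet marked 8 KO barcodes (0.299%), which were removed, and 0 WT barcodes, so it had not worked and doublets largely remained. UMIs were summed over cells and divided by gene UMIs, 103500376 in KO and 141419013 in WT. Intervals at 95% are exact Poisson for levels, exact conditional binomial for ratios and Clopper-Pearson for shares, and the ratio interval was tested on simulated data.

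Gates used centred log ratios of the tags, with CD150 and CD48 thresholds from Gaussian mixtures of 2 components (scikit-learn 1.9.0) and CD201 split at the median of the CD150+CD48- gate. Leiden clusters were made with scanpy 1.11.5 (resolution 1, 2000 variable genes, 30 components, 15 neighbours). They left out Bclaf1, ribosomal, mitochondrial, haemoglobin, histone and sex-linked genes, and fixed lists of chaperone, immediate early and cell cycle genes. Clusters still differed in cell cycle. The median G2 and M phase share was 0.592% in KO and 0.559% in WT cells of cluster 0, against 0.113% and 0.0558% over all cells. A cluster was named "-like" from fixed markers by a rule set after the clusters were seen. Counts of genes covered those with a mean of at least 5 CPM. Genes named were the members, those of each list with the interval bounds farthest from 0 in each direction (3 each, some of them printed), and the 8 genes most like the pair. Some genes that this rule names are not reported here. Alternatives to scaling, filters, thinning, gates and weights were computed.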

Additional observations from a re-analysis of the deposited data

Results flagged for a closer look

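These results stood out because the effect ran in opposite directions in groups under the same contrast. With 1 library per genotype the difference between groups was not tested.

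In the Cma1 and Tpsb2 mast or basophil-like cluster (45 KO and 71 WT cells), log2 KO/WT ratios were -1.01 for Hspa1a plus Hspa1b, -1.68 for Hspa1a, -0.40 for Hspa1b, -0.52 for Hspa8, -0.47 for Hsp90aa1 and -0.45 for Hspe1. The counting interval of Hspa1b, with an upper end of 0.18, included 0. The median cell of that cluster held 17300 UMIs in KO and 12046 in WT.

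Between CD150+CD48- and CD150-CD48+ cells, Hspe1 had a log2 ratio of 0.33 in KO and -0.17 in WT. Between high and low CD201 cells of the CD150+CD48- gate, Hsph1 had 0.18 in KO and -0.66 in WT, Hsp90aa1 had 0.19 in KO and -0.71 in WT, and Hspe1 had 0.20 in KO and -0.71 in WT. Erythroid-like cells made up 21.6% of the high CD201 cells in KO and 0.356% in WT, and gave 49.3% and 1.63% of their UMIs. These shares moved with the 3 genes, and the part they had in the opposite directions was not tested.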

How the results depend on the processing

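Of 383 alternative values over 91 results, 0 turned a called direction, 145 moved and 238 stayed the same. For ratios and shares of cells, moved meant outside the 95% counting interval of the main value. For counts of genes and the share of clusters, it meant past a fixed fold limit. Results without a called direction could not be turned, so the 0 does not cover them. Alternative log2 ratios over all LSK cells ran from -0.03 to 0.09 for Hspa8 and from -0.06 to 0.05 for Hsp90ab1. They ran from -0.05 to 0.06 for Dnaja1 and from -0.02 to 0.35 for Hspe1, so signs changed. Dnajb1 kept its sign but fell to 0.24 at its lowest, below the 25% line. Hsp90aa1 kept its sign and ran from 0.14 to 0.46. Over all LSK cells the log2 ratio of Hspa1a plus Hspa1b, 1.31 in the main analysis, was 1.24 with median-of-ratios scaling, 1.27 with cells thinned to 8000 UMIs, 1.27 as a mean of per-cell CPM, 1.44 without the 1% of cells with the most UMIs of the pair, 0.91 with KO cells weighted to the WT immediate early ranges, 1.28 with WT cluster shares and 1.39 without the erythroid-like cluster. In the CD150+CD48- gate, where it was 1.49, it was 1.74 without the top 1% of cells, 1.22 with WT cluster shares and 1.70 without the erythroid-like cluster. Median-of-ratios scaling moved all log2 ratios by -0.07. The count of other pathway genes at least 25% higher, 6 in the main analysis, was 10 with no filter on level, which admits genes of few UMIs. The weights by cluster and by immediate early range, and the values without the erythroid-like cluster, were chosen after seeing the data. No paired analysis was possible because each genotype had 1 library and the results come from no test. Depth limits what can be said of single cells, since the median thinned cell held 0 UMIs of Hsf1 and of Hsph1 in both libraries.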
